A study of Ovis aries with 18 samples.

Results

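The miR-23, miR-24 and miR-27 microRNAs of the sheep uterus were followed in extracellular vesicles of the uterine lumen and in the endometrium, the lining that faces this lumen. A row of either deposited table was taken as a member when its own name, or the known miRNA listed with the same seed, carries the number 23a, 23b, 24, 27a or 27b. The rule found 7 rows in each table, the same 7 in both, of 495 vesicle rows and 761 endometrium rows. The rows 5_28971 and 2_16698 hold identical values in every vesicle library. In the endometrium they have the same deposited fold and adjusted p, and their values per library were not compared. They were counted once in both, which left 6 members among the 768 rows of the series. Every ewe (Ovis aries) had been ovariectomized and was given 50 mg of progesterone (P4) a day over 14 days. The P4 group received nothing else, and the P4+RU486 group also received 50 mg of RU486 (mifepristone, an antagonist of the progesterone receptor) a day on days 8 to 14. There were 5 ewes in each treatment, with 4 vesicle libraries and 5 endometrium libraries a treatment. Vesicles came from a uterine flush with 10 ml of saline, passed through a 0.22 µm filter and separated by size exclusion. Since the ovaries were absent in both groups, the injected hormone was not added to any from the ovaries. The labels give neither age nor breed.

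MicroRNAs are short RNAs that guide the silencing machinery to messenger RNAs, chosen mainly through the seed, a short stretch near the 5' end. In mammals, miR-23, miR-27 and miR-24 are cut from shared precursors of a pair of paralogous clusters, the first with miR-23a, miR-27a and a miR-24 copy, the second with miR-23b, miR-27b and another miR-24 copy. Each miR-23 or miR-27 paralog differs little from its partner, and mature miR-24 of both clusters is the same molecule. The clusters are known for roles in endothelial cells and vessel growth, muscle, fat cell differentiation and lymphocytes. Their known targets include Sprouty and semaphorin messages for miR-23 and miR-27, the fat cell regulator PPARG for miR-27, and the pro-apoptotic BIM and cell cycle genes for miR-24.

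Of the 6 members, miR-23a, miR-23b and miR-27a carry sheep names. The row 2_16700 is listed with the seed of bovine miR-27a-3p. As miR-27a has a row of its own, 2_16700 is a further row of that seed, a seed that miR-27b also has, and it is called by its identifier here. The rows 5_28971 and 2_16698 (the miR-24 pair below) and 21_20120 are listed with the seed of bovine miR-24-3p. No member is listed with a 5p arm. The tables give no coordinates. In RefSeq's genes for a different assembly, ARS-UI_Ramb_v3.0, MIR23A and MIR27A follow each other with no gene between them, and MIR23B lies within the bounds of AOPEP, an aminopeptidase gene.

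The 8 vesicle libraries, named after their columns (P01 to P04 for P4 alone, R01 to R04 with RU486 added), held between 97202 and 1062646 reads in listed rows. The deepest was P03, and P01, P04 and R04 were the shallowest, at 97202, 97593 and 101186 reads. Levels are in normalized CPM, which the authors scaled to each library's size, and 1 read was worth 1.10 to 10.4 normalized CPM. Intervals on reads are exact Poisson intervals at 95% and cover counting error only, since without molecular identifiers PCR copies cannot be told from separate molecules. Such values are relative to the rest of a library, so that fewer vesicles from a cell type and less RNA per vesicle cannot be told apart. Of the epithelial marker list (miR-200a, miR-200b, miR-200c, miR-141 and miR-429), 3 of 5 names had a row, with a summed level of 7118 to 30229 in P4 and 10482 to 15999 in P4+RU486. No row matched miR-126, the endothelial marker.

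The miR-27 rows led the group. The row 2_16700 was at 13302, 19970, 27181 and 15579 normalized CPM in P01 to P04 and at 18123, 26444, 18208 and 21246 in R01 to R04. The highest library was P03, the lowest P01, and the treatments overlapped. It ranked 9th to 14th among all 495 rows of a library, with 1633 to 24735 reads, and its share of reads was 1.90% ± 0.295 (SD, n = 4) with P4 alone and 2.04% ± 0.375 (SD, n = 4) with RU486 added. miR-27a was at 8367, 10218, 11713 and 8968 in P01 to P04 and at 12080, 14334, 9730 and 10576 in R01 to R04. The libraries R01 and R02 lay above every P4 library, while R03 and R04 lay within the P4 range. miR-27a ranked 15th to 21st and its share of reads was 1.004% ± 0.0646 (SD, n = 4) with P4 alone and 1.13% ± 0.188 (SD, n = 4) with RU486 added. Together these 2 rows supplied 89.8% to 95.5% of the reads of the 5 members with more than 1 read, which in all took 2.82% to 4.15% of a library.

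miR-23a, encoded beside miR-27a, was far less abundant in the reads. It was at 833, 970, 2526 and 944 normalized CPM in P01 to P04 and at 1022, 955, 1090 and 856 in R01 to R04. P03 alone was high, and the 7 other libraries lay between 833 and 1090. miR-23a ranked 44th in P03 and 62nd to 69th elsewhere, with 82 to 2299 reads. miR-23b was at 526, 672, 1333 and 563 in P01 to P04 and at 759, 745, 722 and 491 in R01 to R04. Here too P03 was highest, and R04, with 47 reads (a Poisson interval of 361 to 653 normalized CPM), was lowest. miR-23a and miR-23b are near-identical, as are the miR-27 paralogs, and the counting could divide reads between them, so the sums were also taken. The summed miR-23 rows were at 1359 to 3859 in P4 and 1347 to 1812 in P4+RU486, and the summed miR-27 rows at 21669 to 38895 and 27939 to 40778.

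The miR-24 pair was the rarest of the 5 signals. It was at 181, 187, 538 and 210 normalized CPM in P01 to P04 and at 207, 222, 239 and 198 in R01 to R04. P03 was again high, and the 7 other libraries lay between 181 and 239. The pair ranked 80th in P03 and 101st to 107th elsewhere, and 19 reads in R04 gave a Poisson interval of 119 to 310 normalized CPM. Because mature miR-24 is the same from both clusters, the pair cannot tell which cluster its reads came from. The third row of this seed, 21_20120, had 1 read in P03 and none in the other libraries, where a count of 0 is taken here to allow up to 3 reads, or 5.62 to 31.3 normalized CPM, which is lower than the upper end of the Poisson interval used for counts above 0. It did not pass the filter on low values. Libraries capture miRNAs with unequal efficiency, so the order of the levels (2_16700, miR-27a, miR-23a, miR-23b, the miR-24 pair) is that of reads, and the same order held in each of the 8 libraries.

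**Figure D1:**
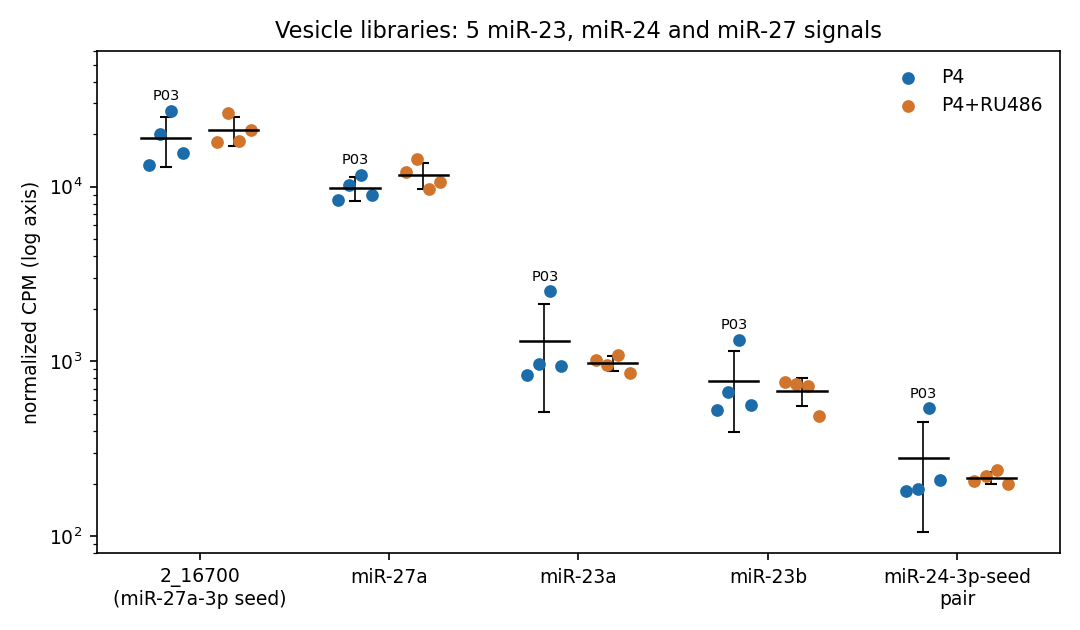
Normalized CPM (log axis) of the 5 signals in the 8 vesicle libraries. Each point is a library, blue for P4 and orange for P4+RU486, and bars are the mean and SD of 4 libraries. P03 is marked and is the highest P4 point for each signal, and for miR-23a it lies at 2526 against 833 to 1090 in the others.

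The treatment comparison asked whether these miRNAs differed in vesicles when RU486 was added in the second week. None of the 5 members tested passed limma's test on log2(value + 1), adjusted over 229 rows, where 0.437% of rows passed (1 row, no member). No member had an unadjusted limma p under 0.05, where 14.4% of all rows had one, and none passed with edgeR or DESeq2 on the recovered reads. The treatments overlapped for every member, where 10.0% of all rows did not overlap. With 5 members, a count of none says little beside shares of this size. The estimates of 2 of the 5 were above 0, as were 51.5% of all rows. miR-27a averaged 9817 ± 1481 (SD, n = 4) with P4 alone and 11680 ± 2018 (SD, n = 4) with RU486 added, which differed by 0.25 on the log2 scale (SE 0.21, limma adjusted p = 0.704). Its 95% interval ran from -0.22 to 0.71. The row 2_16700 averaged 19008 ± 6111 (SD, n = 4) and 21005 ± 3906 (SD, n = 4), a difference of 0.18 (SE 0.25, limma adjusted p = 0.814). miR-23a averaged 1318 ± 808 (SD, n = 4) and 981 ± 99.8 (SD, n = 4), a difference of -0.27 (SE 0.35, limma adjusted p = 0.814). For miR-23b and the miR-24 pair the differences were -0.10 (SE 0.34) and -0.20 (SE 0.39), with limma adjusted p-values of 0.913 and 0.878. The median of the 5 was -0.10, beside 0.04 over all 229 rows. The intervals bound what these libraries could miss: from 0.858 to 1.64 times the P4 level for miR-27a, 0.775 to 1.66 times for 2_16700 and 0.488 to 1.41 times for miR-23a.

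Among the 20 alternatives run, the negative estimate of miR-23b turned without P03, without R04 (0.048) and with depth as a covariate (0.039). Those of miR-23a and the miR-24 pair turned only without P03. Without it, 5 of 5 members had estimates above 0, as had 55.1% of all rows, and none passed (smallest limma adjusted p = 0.485, where 0.441% of rows passed). miR-23a then differed by 0.10 (SE 0.25), miR-23b by 0.20 (SE 0.28) and the miR-24 pair by 0.17 (SE 0.30), and the mean of the 3 remaining P4 libraries was 916 ± 72.9 (SD, n = 3) for miR-23a. The estimates of miR-27a and 2_16700 were 0.34 (SE 0.22) and 0.37 (SE 0.23) without P03.

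**Figure D2:**
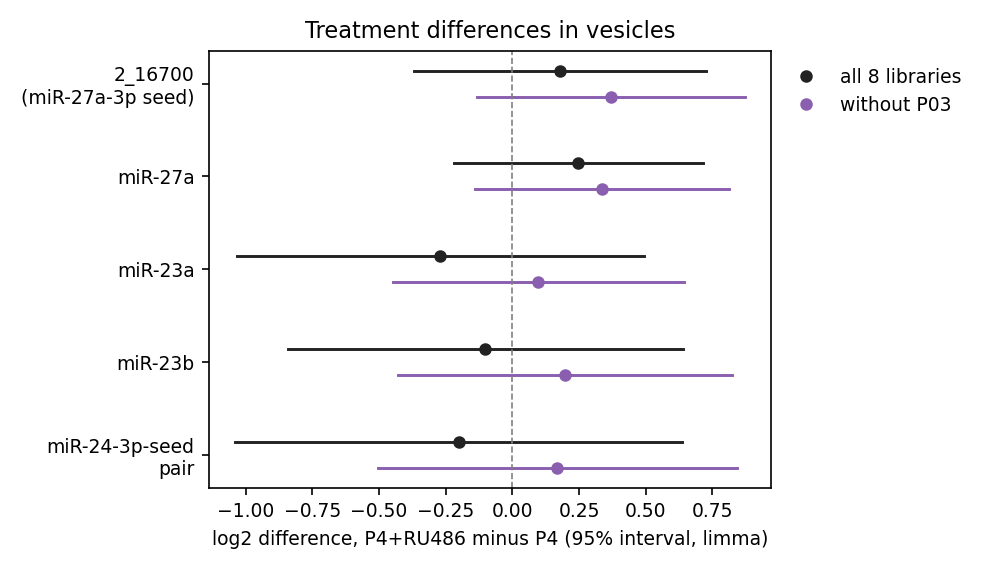
Log2 difference of P4+RU486 minus P4 for the 5 signals, with limma's 95% interval, from all 8 libraries (black) and without P03 (purple). All intervals include 0. The estimates of miR-23a, miR-23b and the miR-24 pair lie below 0 with P03 and above 0 without it.

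P03 did not carry more of all 5 alike. Its miR-23a level was 2.65 times the median of the 7 other libraries, that of the miR-24 pair 2.60 times and that of miR-23b 1.98 times. For 2_16700 the ratio was 1.49 and for miR-27a 1.15. On the log2(value + 1) scale the median row of the 229 was 0.19 higher in P03 than in the others. Of the 227 other rows (the miR-24 pair counted once), 10 stood at least as high in P03 as miR-23a, 11 as the miR-24 pair, 20 as miR-23b, 57 as 2_16700 and 110 as miR-27a. The share of reads, which does not use the authors' scaling, gave the same picture for miR-23a, at 0.216% in P03 and 0.0810% to 0.111% in the others. Other measures moved in P03 as well. It had 1062646 reads, where the next deepest library had 571791. The summed epithelial markers were at 30229 in P03 and at 7118 to 15999 in the others. Of the 5 epithelial rows, miR-200b and miR-200c were 1.93 and 2.02 higher in P03 than the median of the others on the log2(value + 1) scale. The other 3 were 0.16 to 0.31 higher, beside 0.19 for the median row. The smooth muscle markers (miR-143 and the row with the miR-145 seed) were at 16531 in P03 and at 9730 to 14935. The leukocyte list (4 of 5 names with a row, none for miR-223) was at 2512 in P03 and 2286 to 14818 in the others. The erythroid row, with the miR-486 seed, was at 363 and 281 to 7365, and the lists' miR-451 and miR-144 had no row. The stromal list was at 83.5 in P03 and 131 to 849 in the others. The part of depth or of these markers in the P03 levels was not tested.

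**Figure D3:**
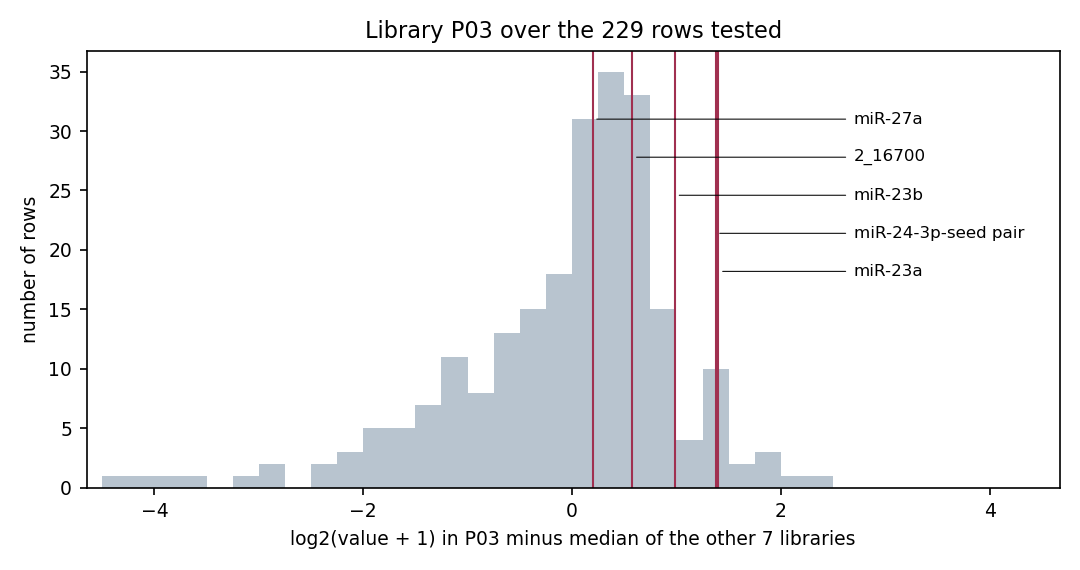
Histogram of 229 vesicle rows by log2(value + 1) in P03 minus the median of the 7 other libraries, with the 5 signals as red lines. miR-27a lies near the middle of the distribution, and miR-23a and the miR-24 pair lie in its upper tail, with 10 and 11 other rows at least as high.

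Ratios between members within a library are free of the scaling. The ratio of miR-23a to the miR-24 pair was 4.61, 5.18, 4.69 and 4.50 in P01 to P04 and 4.94, 4.30, 4.56 and 4.32 in R01 to R04. P03 lay within the range of the others. The SD over the 8 libraries was 0.09 on the log2 scale, smaller than the counting error of 0.26, so that at 19 to 23 miR-24 reads in 3 libraries this SD does not measure how steady the ratio is. The near-identical miR-23a and miR-23b had an SD of 0.19, with a ratio from 1.28 to 1.90, at a counting error of 0.18. miR-27a and 2_16700 had an SD of 0.20, with miR-27a at 0.431 to 0.667 times 2_16700, and here the counting error was 0.04. Among 227 rows none had a smaller SD to miR-27a than 2_16700, with all 8 libraries or without P03 (SD 0.16). Seen from 2_16700, 2 of 227 rows had a smaller SD than miR-27a with all 8 libraries, and none without P03. These ratios describe 8 libraries, and no treatment contrast was tested on them.

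The ratio of the neighbours miR-23a and miR-27a varied mostly through P03. miR-23a was at 0.0995, 0.0949, 0.216 and 0.105 times miR-27a in P01 to P04 and at 0.0846, 0.0666, 0.112 and 0.0809 in R01 to R04. The highest was 3.24 times the lowest, with an SD of 0.50 at a counting error of 0.11. With P03 set aside, the highest was 1.68 times the lowest (0.0666 to 0.112), with an SD of 0.26 at a counting error of 0.12, and the treatments overlapped. Of 227 rows, 39 had a smaller SD to miR-23a than miR-27a had, and 14 without P03. The 3 ratios among miR-23a, miR-23b and the miR-24 pair had SDs of 0.09 to 0.23, and the 6 ratios of these to a miR-27 row had SDs of 0.34 to 0.50. Without P03 the corresponding SDs were 0.10 to 0.21 and 0.23 to 0.31, so the separation of these ratios by their scatter rested largely on P03.

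**Figure D4:**
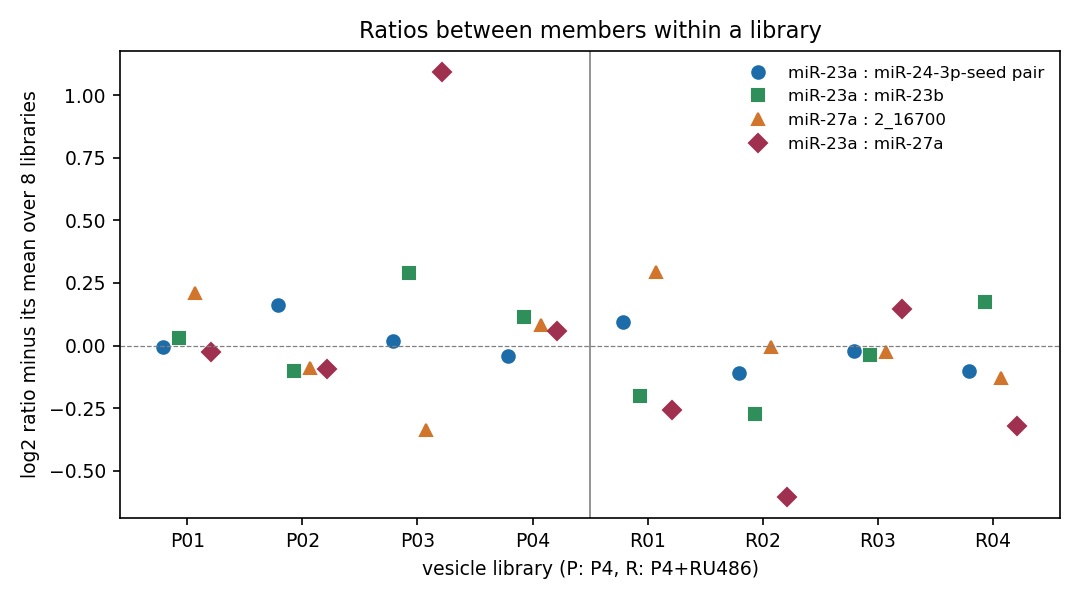
Log2 ratio of 4 pairs of members in each vesicle library, minus the mean of that ratio over the 8 libraries. Points are libraries, P4 at left and P4+RU486 at right. miR-23a against the miR-24 pair (blue circles) has an SD of 0.09, below its counting error, and miR-23a against miR-27a (red diamonds) is highest in P03, with an SD of 0.50, or 0.26 without it.

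Rows outside the group were ranked by the SD of their log2 ratio to the leading row of each seed over the 8 libraries, among 223 rows. For miR-23a the most alike were 9_34222, with the miR-151-5p seed (SD 0.28), miR-200b (0.34) and miR-191 (0.36). All 3 were highest in P03, which the ranking itself favours, since miR-23a was high in that library. Of them miR-200b, an epithelial miRNA, was at 11590 there and 3.82 times the median of the others. The epithelial rows did not move alike in P03. On the log2(value + 1) scale miR-200c was 2.02 higher there, and miR-200a, 3_27218 and 12_7044 were 0.31, 0.18 and 0.16 higher. The miR-24 pair had 9_34222 (0.31), miR-194 (0.38) and miR-181a (0.38) as its nearest. Of these miR-194 is a low row, at 23.6 to 89.0 normalized CPM, and no counting error was computed for these SDs. For 2_16700 they were 21_20031 with the miR-215 seed (0.19), miR-30a-3p (0.20) and miR-26b (0.21), beside a median SD of 0.75 over the 223 rows. miR-27a was among the steadiest rows of the table, with a within-treatment SD of 0.23 on the log2 scale, 10th lowest of 229. The median row had 0.66, and 0.41 among the 105 rows with a mean of at least 200. The corresponding SDs were 0.37 for 2_16700, 0.53 for miR-23a, 0.48 for miR-23b and 0.53 for the miR-24 pair.

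Other miRNAs known for vascular roles, as these clusters are, were counted from a list. Of 16 names in the list, 11 had a row by name or seed, and miR-126, miR-210, miR-222, miR-296 and miR-424 had none. Of its 16 tested rows 6 had estimates above 0 (51.5% of all rows had) and 10 below, and the median was -0.09, beside 0.04 over all rows. None passed the limma test, where 0.437% of all rows passed, so that a count of none says little about 16 rows. A row matched by seed need not be the named miRNA.

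In the authors' deposited table for vesicles no member was called, where 1.82% of rows had an adjusted p under 0.05. A positive fold there is higher in P4, which held for all 43 rows with a fold of at least 2 and a mean of at least 10, and for 141 of 157 with a fold of at least 1.2. The members' folds are smaller than that. The authors' deposited table gives folds of -1.19 for miR-27a, -1.11 for 2_16700, 1.09 for miR-23a, 1.09 for the miR-24 pair and 1.02 for miR-23b, with adjusted p-values of 0.99 to 1.0. Each fold has the same direction as the limma estimate from all 8 libraries. The signs are opposite, because the limma differences are P4+RU486 minus P4. For 21_20120 the authors' deposited table gives 2.41 (adjusted p = 0.83), a value that rests on 1 read.

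In the endometrium no member was called either, where 1.18% of the 761 rows had an adjusted p under 0.05 in the authors' deposited table. Which treatment is the numerator is not stated there, and signs are given as coded. The authors' deposited table gives -1.3 for the miR-24 pair (adjusted p = 0.693), -1.2 for 2_16700 (adjusted p = 0.657) and -1.11 for miR-27a (adjusted p = 0.841). It gives -1.09 for miR-23b (adjusted p = 0.977), -1.07 for miR-23a (adjusted p = 0.985) and -1.31 for 21_20120 (adjusted p = 0.886). All 6 members thus had the same sign, as had 52.2% of all endometrium rows in the authors' deposited table. In vesicles the signs were mixed with all 8 libraries. Without P03 the limma estimates (P4+RU486 minus P4) of all 5 tested vesicle members were above 0. The vesicle fold of 21_20120 rests on 1 read. These limma signs run opposite to those of the authors' vesicle folds, and the direction of the endometrium folds is not stated. Whether tissue and vesicles went the same way therefore cannot be read from the signs. The median size of the authors' folds was 1.25 over all endometrium rows and 1.63 over all vesicle rows. The tables were normalized separately and the endometrium levels per library were not used here, so no difference between vesicles and tissue was tested.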

How the data were processed

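Small RNA libraries (TruSeq) were adapter-trimmed with cutadapt 1.11 and analysed against the sheep build Oar_v3.1 with edgeR, per the submitters' processing notes. Aligner and miRNA caller: not given in the sources used here. The vesicle table deposited by the authors holds a normalized signal per library, CPM over a library size adjusted by TMM factors. Dividing each column by the worth of 1 read gave whole reads for 100% of values (within 0.1 read), and these are the recovered reads. The deposited fold is a signed score and the deposited adjusted p-value the authors' own, per the file headers. The treatment of vesicle columns was read from their initial letter, which names no ewe. The 10 endometrium columns of values per library match no label and were not used.

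The test was limma 3.58.1 (trend, R 4.3.3) on log2(value + 1) over the 229 rows with a mean of at least 10, p-values adjusted by Benjamini-Hochberg and called under 0.05. Differences are P4+RU486 minus P4, and on this scale those of low rows are understated. edgeR 4.0.16 (quasi-likelihood) and DESeq2 1.42.0 on recovered reads, other pseudocounts, filters and scalings, depth as a covariate and left-out libraries were alternatives. The fits were tested on simulated data. Every member is named. Outside them, the 3 rows with the smallest SD of the log2 ratio to the most abundant row of each seed group are named, and rows on which a result turns. Members, lists and tests were chosen with earlier results of these data known. The libraries of a group were taken to be from different ewes, though the column names give no ewe.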

Additional observations from a re-analysis of the deposited data

Results flagged for a closer look

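Of 36 groups of 4 libraries examined (levels, sums and ratios of the 5 signals), 6 had a library set far from the rest by Dixon's criterion, which flags about 1 group in 20 by chance, and the groups share libraries and members. In P4, P03 was far above the others for miR-23a (2526 normalized CPM, nearest 970), the miR-24 pair (538, nearest 210) and the summed miR-23 rows (3859, nearest 1642). It was also far above them for the ratio of miR-23a to miR-27a (0.216, nearest 0.105) and of miR-23b to miR-27a (0.114, nearest 0.0658). In P4+RU486, R04 was far below the others for miR-23b (491, nearest 722), at 47 reads.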

How the results depend on the processing

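No member passed under any of the 20 alternatives run (smallest adjusted p = 0.320, for miR-27a with depth as a covariate). miR-27a stayed above 0 in all 20 (0.12 to 0.34). With 1 library left out, the log2 differences ranged from -0.44 to 0.10 for miR-23a, -0.25 to 0.20 for miR-23b, -0.35 to 0.17 for the miR-24 pair and 0.026 to 0.37 for 2_16700. The signs of miR-23a and the miR-24 pair turned without P03, and that of miR-23b without P03 or R04 (0.048 without R04). With depth as a covariate miR-23b was at 0.039, and without the 3 shallowest libraries 2_16700 was at -0.18, and the cause was not tested. Over all rows, 1 passed, against 6 with edgeR without a filter, 5 with DESeq2, 6 with depth as a covariate and 0 to 2 with 1 library left out. The count was 0 without P04, R01, R03 or R04 and 2 without P02. Ratios between members moved by less than their SD with 1 added to each value. Without P03, an alternative chosen after seeing the data, the SDs of the ratios to miR-27a were 0.26 for miR-23a, 0.23 for miR-23b and 0.24 for the miR-24 pair, down from 0.50, 0.38 and 0.49. At 19 to 23 reads in the 3 shallowest libraries, depth limits the miR-24 pair most. No paired analysis was possible because the columns carry no ewe number and the treatments were given to different ewes. The planned endometrium fits were not run because its columns match no label.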
